A study of Homo sapiens with 12 samples.

Results

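The BCL2 family was followed through 10 genes in human HEK293T cells: the BH3-only genes BMF, BCL2L11, BBC3, PMAIP1 and BID, the effectors BAX and BAK1, and the anti-apoptotic genes BCL2, BCL2L1 and MCL1. They are 10 of the 33093 genes kept from the deposited count table. The set was chosen by the TNFα response of BMF, which was lower after TNFα in these same samples, so that response is given here as a description without a test. The same holds for the response of the other members to TNFα, which comes from the same contrast.

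RNA was sequenced from 4 groups of 3 samples each: wild-type (WT) HEK293T cells and cells carrying NFKB1 S80A, either untreated or given 10 ng/ml TNFα for 3 h. S80A replaces serine 80 of the NF-κB subunit p50, encoded by NFKB1, with alanine, and the study asked what phosphorylation of this serine does to the NF-κB response. The edit was made with CRISPR/Cas9 and an oligonucleotide repair template, and edited cells were grown from single cells, whereas no such step is described for the WT cells. The number of edited clones that were sequenced is not given in the sources used here, and an effect of the edit and a property of a clone cannot be told apart. HEK293T is a transformed human embryonic kidney line that carries viral genes, among them adenovirus early genes that include a viral relative of BCL2.

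BCL2 family proteins decide whether the outer membrane of the mitochondrion is opened to release the proteins that start apoptosis. BAX and BAK1 form the pores, BCL2, BCL2L1 (BCL-XL) and MCL1 hold them in check, and the BH3-only proteins bind the protectors or activate the pore formers. TNFα can signal both survival, largely through genes switched on by NF-κB, and death, and in the death pathway BID is cleaved and carries the signal to mitochondria. Much of the control of this family acts on the proteins, which RNA counts do not show.

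The promoter of BMF, the gene around which the set was assembled, is shown first. It was searched for the κB consensus, the motif bound by NF-κB dimers, as were those of the other members. Promoter windows of RefSeq (GRCh38.p14), running from 250 bases before to 50 bases after each gene's start, were available for 9 of the 10 members, in 15 windows. The κB consensus was searched on both strands and was matched in 1 of these 15 windows. That is near the share over all 35116 windows, 5.91%, so the match does not set the members apart. The match lay in 1 of the 2 windows of BMF, on the strand opposite to the gene, between 20 and 11 bases before the start, at chr15:40108890-40108899. In the 250 bases before the BMF start, chr15:40108880-40109129 on the minus strand, written 5′ to 3′ along the gene, the capitals mark this match:
BMF: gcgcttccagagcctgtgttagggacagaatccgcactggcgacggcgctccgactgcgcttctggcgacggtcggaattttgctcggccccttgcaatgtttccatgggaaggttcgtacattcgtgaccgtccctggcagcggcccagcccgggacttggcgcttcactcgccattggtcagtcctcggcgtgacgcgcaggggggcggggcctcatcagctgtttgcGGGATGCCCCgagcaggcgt

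These 250 bases were 65.2% G and C. GENCODE places the 5′ end of BMF at position 40108892, so the match touches the first bases of that gene model. A further pair of motifs was searched for the factors long tied to BH3-only genes, the FOXO motif GTAAACA and the AP-1 motif TGANTCA, on both strands. Each was matched in 1 of the 15 windows, in capitals here with 10 bases on either side:
BCL2L11, FOXO: agttactccgGTAAACAcgccagggac
BBC3, AP-1: cactggaaggTGAGTCActctggtgag

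The FOXO match began 223 bases before the RefSeq start of BCL2L11, at chr2:111120691-111120697, and 3.42% of all windows held one. GENCODE places the 5′ end of BCL2L11 further upstream, at position 111119378, so this match lies inside that gene model. The AP-1 match began 113 bases before the RefSeq start of BBC3, at chr19:47232774-47232780, and 7.71% of all windows held one. GENCODE places the 5′ end of BBC3 at position 47232766, so this match lies just before that gene model. A match is a stretch of letters and not evidence of binding, and no match in the other windows says only that these letters are not in those 300 bases.

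The libraries held between 15624878 and 20889577 counts. After a filter on low counts 14383 genes were tested, and all 10 members were among them. Levels of one gene across samples are given as normalised counts, the counts divided by TMM-adjusted library sizes and brought back to the scale of an average library. NFKBIA, the κB-driven inhibitor gene that checks the TNFα labels, was 3.52 higher on the log2 scale after TNFα in WT cells and 3.66 higher in S80A cells. Counts per gene cannot show the S80A codon itself. Of the markers of HEK293 lines, NEFL, VIM, KRT8, KRT18 and CDH2 were present in both genotypes, but NEFM had 1774 to 2165 counts in WT samples and 3 to 6 in S80A samples. Of 6 markers of other cell types, PTPRC and CD3E were at 0 in every library, PECAM1 and ALB did not exceed 2 counts and CD14 did not exceed 9. The fibroblast marker COL1A1 had 242 to 313 counts in WT and 104 to 146 in S80A samples, so that the summed list ranged from 251 to 322 in WT and from 106 to 153 in S80A. NEFM and COL1A1 were thus lower in S80A than in WT samples. KRT18 was higher in S80A cells, by 0.46 on the log2 scale untreated and 0.60 after TNFα, and CDH2 by 0.46 and 0.45. VIM, NEFL and KRT8 showed no difference between genotypes that passed the test of edgeR. NEFM, COL1A1, KRT18 and CDH2 moved with the genotype, as did the differences given for members of the family. The part of these markers in those differences was not tested. VIM was higher after TNFα in the edgeR test, by 0.42 (SE 0.09; adjusted p = 0.0319) on the log2 scale in S80A cells. In WT cells the VIM difference was 0.35 (SE 0.09; adjusted p = 0.149 in the same test) and did not pass.

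BMF, a BH3-only protein that is held on the myosin V motor complex through a dynein light chain and binds anti-apoptotic members when freed, was lower after TNFα in both genotypes. BMF (chr15:40087890-40108892, minus strand, GRCh38) had 124.2, 99.3 and 117.6 normalised counts in the 3 untreated WT samples and 50.9, 40.5 and 48.9 after TNFα. In S80A cells it had 153.8, 102.1 and 115.5 untreated and 47.0, 43.7 and 40.8 after TNFα. Every TNFα sample lay below every untreated sample in both genotypes, and the TNFα samples of WT and S80A cells overlapped. The log2 difference between TNFα and untreated was -1.28 (SE 0.18) in WT cells, a 2.42-fold lower level, and -1.50 (SE 0.18) in S80A cells, a 2.83-fold lower level. These were the 6th and the 8th lowest values among the 14383 genes. BMF was chosen by this response, so these places are no test of it. As a background for the other genes of the pathway, 0.688% of all genes in WT and 1.26% in S80A passed the test for TNFα. Those called lower were 0.111% and 0.292% of all genes. Leaving out any one of the 12 libraries kept the BMF difference between -1.37 and -1.18 in WT and between -1.61 and -1.31 in S80A. The raw BMF counts behind these values were 111 to 120, 41 to 50, 85 to 166 and 37 to 52 in WT untreated, WT with TNFα, S80A untreated and S80A with TNFα. In bulk samples a lower count cannot tell fewer cells with BMF RNA from less BMF RNA in each cell. Without strand-specific counting, which is not stated, reads of BMF and of the overlapping antisense gene BMF-AS1 cannot be told apart either.

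**Figure D1:**
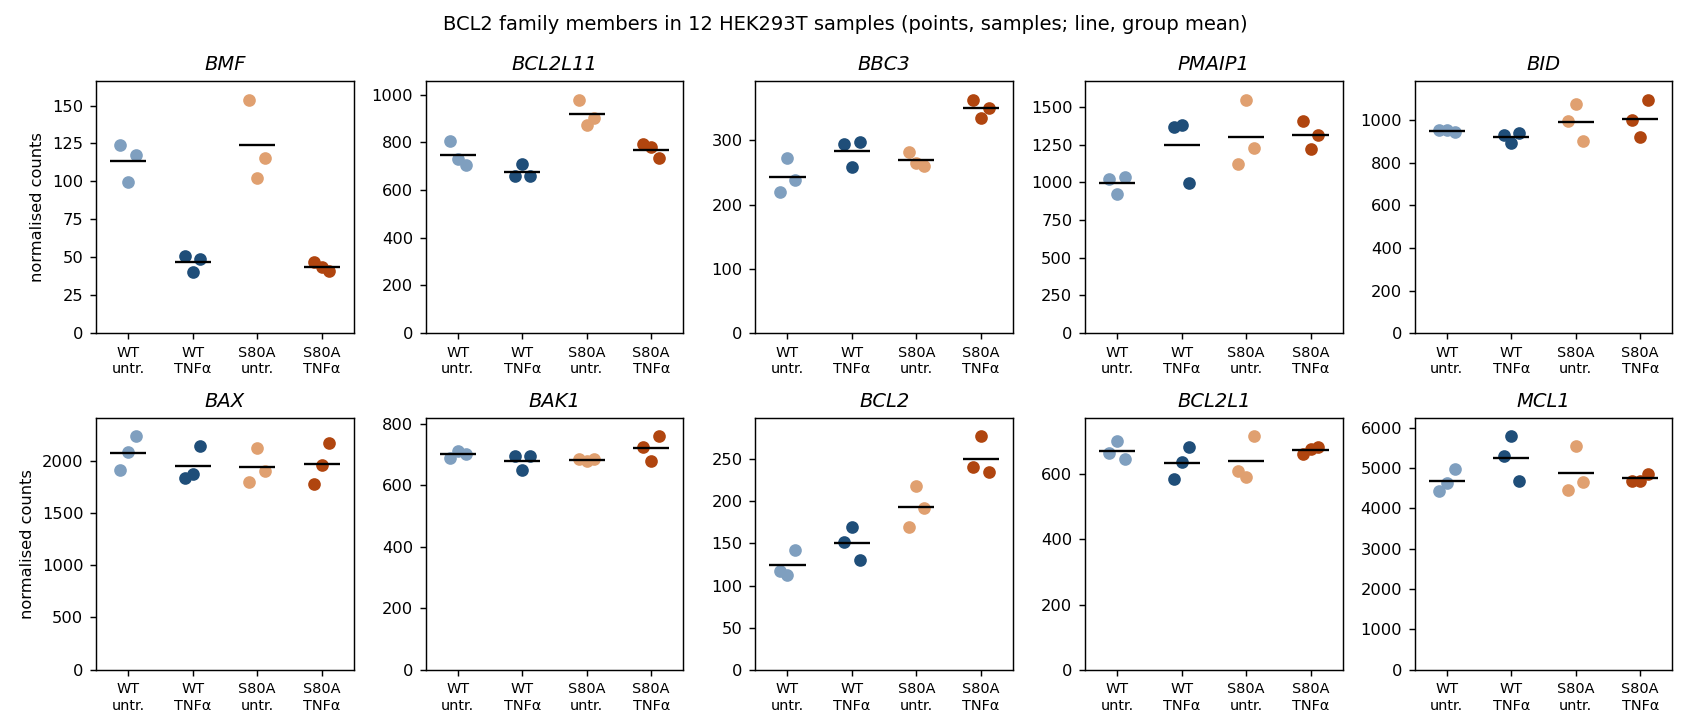
Normalised counts (vertical axes, from 0, a separate scale for each gene) of the 10 members in the 4 groups; each point is a sample and each line a group mean of 3 samples. BMF is lower in all TNFα samples of both genotypes, BCL2 is higher in S80A than in WT samples in both conditions, and BAX and BAK1 stay within narrow ranges.

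The genotype comparisons are other contrasts than the TNFα contrast that chose BMF, although they share its samples. For BMF the untreated groups overlapped, with means of 113.7 ± 12.9 in WT and 123.8 ± 26.8 in S80A (SD, n = 3 each). The log2 difference S80A minus WT was 0.13 (95% interval -0.22 to 0.48; p adjusted by Benjamini and Hochberg's method over all genes tested = 0.716, quasi-likelihood test of edgeR). Its sign rested on 1 library, since the difference was -0.05 without S80A untreated replicate 1. After TNFα the difference was -0.09 (95% interval -0.52 to 0.34; adjusted p = 0.850 in the same edgeR test). Both intervals reach well to either side of 0.

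Across the family, 2 of the 10 members, BCL2 and BCL2L11, were higher in untreated S80A cells than in untreated WT cells and 0 were lower, where 6.26% of all genes tested were called, 2.05% as higher and 4.21% as lower. After TNFα 1 of the 10, BCL2, was higher and 0 were lower, where 7.36% of all genes were called, 2.92% as higher and 4.44% as lower. The groups did not overlap for 4 members untreated, against 25.0% of all genes, and for 3 members after TNFα, against 26.2%. The median log2 difference over the 10 members was 0.10 untreated and 0.09 after TNFα, and over all genes it was 0.01 and -0.0037. The replicates were triplicate, independently generated samples of each line, so the p-values measure the spread between such samples and not between independently edited clones.

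BCL2, the founding anti-apoptotic member, showed the widest genotype difference of the 10. BCL2 (chr18:63123346-63320128, minus strand) had 117.0, 112.7 and 142.3 normalised counts in untreated WT and 169.6, 218.6 and 192.7 in untreated S80A samples. After TNFα it had 151.5, 169.9 and 130.2 in WT and 240.5, 277.2 and 235.0 in S80A samples. Every S80A sample lay above every WT sample of the same condition. The log2 difference was 0.64 (SE 0.14, 95% interval 0.33 to 0.95, 1.56-fold; adjusted p = 0.0167) untreated and 0.74 (SE 0.14, 95% interval 0.44 to 1.03, 1.66-fold; adjusted p = 0.0060) after TNFα in edgeR's quasi-likelihood test. The call after TNFα passed without each of the 12 libraries in turn, with adjusted p up to 0.0295. The untreated call passed in 9 of these 12 fits and was lost without WT untreated replicate 1 (adjusted p = 0.0635), WT untreated replicate 2 (0.0942) or S80A untreated replicate 3 (0.0504), where the difference lay between 0.58 and 0.64. It was also lost with the untreated samples fitted alone, with adjusted p = 0.0577 in edgeR's test. BCL2 was also the member with the second-lowest counts, 113 to 266 reads per library. The gene overlaps ENSG00000267766 on the same strand and ENSG00000283125 on the other strand.

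BCL2L11, which encodes BIM, a BH3-only protein that binds all the anti-apoptotic members and can activate BAX, was higher in untreated S80A cells by a small margin. It had 803, 731 and 704 normalised counts in untreated WT and 979, 873 and 904 in untreated S80A samples, which did not overlap. The log2 difference was 0.30 (SE 0.08, 95% interval 0.13 to 0.48, 1.23-fold; adjusted p = 0.0422 in the edgeR test). This call was near the threshold and passed in 4 of the 12 fits that left out 1 library. It was lost without WT untreated replicate 2 or 3, WT TNFα replicate 1 or 2, S80A untreated replicate 1 or 3, or S80A TNFα replicate 1 or 2, with a difference of at least 0.25 and adjusted p up to 0.182. A fit of the untreated samples alone lost it as well, with adjusted p = 0.120. After TNFα the values were 659, 707 and 659 in WT and 793, 780 and 733 in S80A samples, again without overlap, and the difference of 0.19 (95% interval 0.01 to 0.36) had an adjusted p of 0.197 in the edgeR test. The gene (chr2:111119378-111168444, plus strand) overlaps MIR4435-2HG on the other strand.

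**Figure D2:**
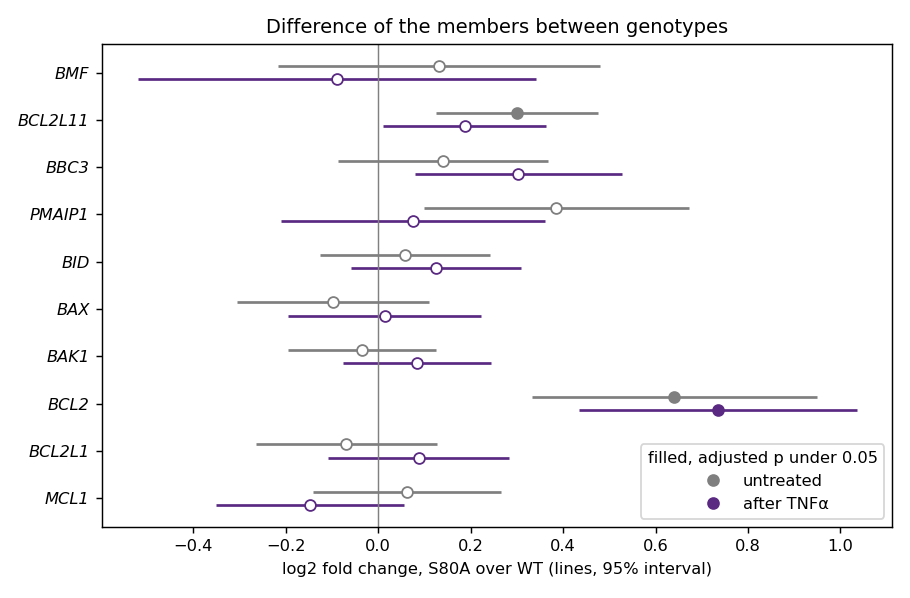
Log2 fold change of S80A over WT (horizontal axis) for each member, untreated (grey) and after TNFα (purple), with 95% intervals as lines and filled points for an adjusted p under 0.05. BCL2 is at 0.64 and 0.74 with filled points, and BCL2L11 is at 0.30 with a filled point in untreated cells. The other points are open. Among them the intervals of PMAIP1 untreated (0.10 to 0.67), BBC3 after TNFα (0.08 to 0.53) and BCL2L11 after TNFα (0.01 to 0.36) lie above 0, and the rest cross 0.

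The remaining BH3-only genes are BBC3, which encodes PUMA, PMAIP1, which encodes NOXA, and BID. PUMA binds all the anti-apoptotic proteins, and NOXA binds mainly MCL1. BBC3 had 219.5, 272.9 and 238.2 normalised counts in untreated WT and 281.7, 264.3 and 260.4 in untreated S80A samples, which overlapped. After TNFα it had 294.8, 258.8 and 297.6 in WT and 363.5, 335.1 and 350.9 in S80A samples, which did not. The log2 difference between genotypes was 0.14 (adjusted p = 0.514) untreated and 0.30 (95% interval 0.08 to 0.53; adjusted p = 0.0959) after TNFα in edgeR's test, and neither passed.

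For PMAIP1 the values were 1020, 923 and 1033 in untreated WT and 1120, 1547 and 1225 in untreated S80A samples. The samples did not overlap, S80A replicate 2 was far above the other S80A samples, and the log2 difference of 0.39 (95% interval 0.10 to 0.67) had an adjusted p of 0.114 in the edgeR test and fell to 0.25 without that S80A library. Without WT TNFα replicate 3, a library in which PMAIP1 had 993 against 1365 and 1382 in the other WT TNFα samples, the same untreated difference passed with an adjusted p of 0.0497. After TNFα the S80A samples had 1407, 1219 and 1315 and overlapped the WT samples, with a difference of 0.08 (adjusted p = 0.796 in the edgeR test) that was -0.06 without that library. BID, the link from death receptors to mitochondria, ranged from 948 to 957 in untreated WT samples and from 902 to 1076 in untreated S80A samples. Its log2 difference was 0.06 (95% interval -0.13 to 0.24) untreated and 0.13 (95% interval -0.06 to 0.31) after TNFα, and neither passed.

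The effectors showed no difference between genotypes that passed the test. BAX ranged from 1906 to 2231 normalised counts in untreated WT, 1832 to 2138 in WT with TNFα, 1798 to 2118 in untreated S80A and 1778 to 2167 in S80A with TNFα, so that all 4 groups overlapped. Its log2 difference S80A minus WT was -0.10 (95% interval -0.31 to 0.11) untreated and 0.01 (95% interval -0.19 to 0.22) after TNFα. BAK1 kept the narrowest span, from 651 to 760 over all 12 samples. The untreated BAK1 samples did not overlap, with 689 to 713 in WT and 680 to 688 in S80A, yet the log2 difference was only -0.04 (95% interval -0.20 to 0.13; adjusted p = 0.847 in the edgeR test).

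Of the other anti-apoptotic members, BCL2L1 ranged from 584 to 716 normalised counts over the 12 samples. Its log2 difference between genotypes was -0.07 (95% interval -0.26 to 0.13) untreated and 0.09 (95% interval -0.11 to 0.28) after TNFα. MCL1, whose protein turns over rapidly and is the usual partner of NOXA, ranged from 4432 to 5785. The MCL1 difference was 0.06 (95% interval -0.14 to 0.27) untreated and -0.15 (95% interval -0.35 to 0.06) after TNFα. The intervals of these members hold no difference as large as the 0.64 and 0.74 measured for BCL2.

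The TNFα values of the other members were small beside that of BMF. The untreated samples of a genotype are shared between its TNFα contrast and the untreated genotype contrast, so these values and the genotype differences are not separate measurements. BCL2 was 0.28 (SE 0.15) higher on the log2 scale after TNFα in WT and 0.38 (SE 0.14) higher in S80A cells. BBC3 was 0.22 (SE 0.11) higher in WT and 0.38 (SE 0.10) higher in S80A cells. BCL2L11 was -0.14 (SE 0.08) in WT and -0.26 (SE 0.08) in S80A cells, the same direction as BMF at a small part of its size. In PMAIP1 the difference was 0.33 (SE 0.13) in WT, with 1 of the 3 TNFα samples inside the untreated range, and 0.02 (SE 0.13) in S80A cells. MCL1 was at 0.17 (SE 0.09) in WT and -0.04 (SE 0.09) in S80A cells. BID, BAX, BAK1 and BCL2L1 lay between -0.09 and 0.08 in both genotypes. Apart from BMF, whose fall chose the set, the TNFα and untreated samples did not overlap for BID in WT. In S80A they did not overlap for BBC3, BCL2 and BCL2L11. Over all genes the share without overlap was 12.7% in WT and 14.4% in S80A. The median over the 10 members was -0.04 in WT and 0.02 in S80A, and that over all genes was -5.17e-05 and -0.0019.

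**Figure D3:**
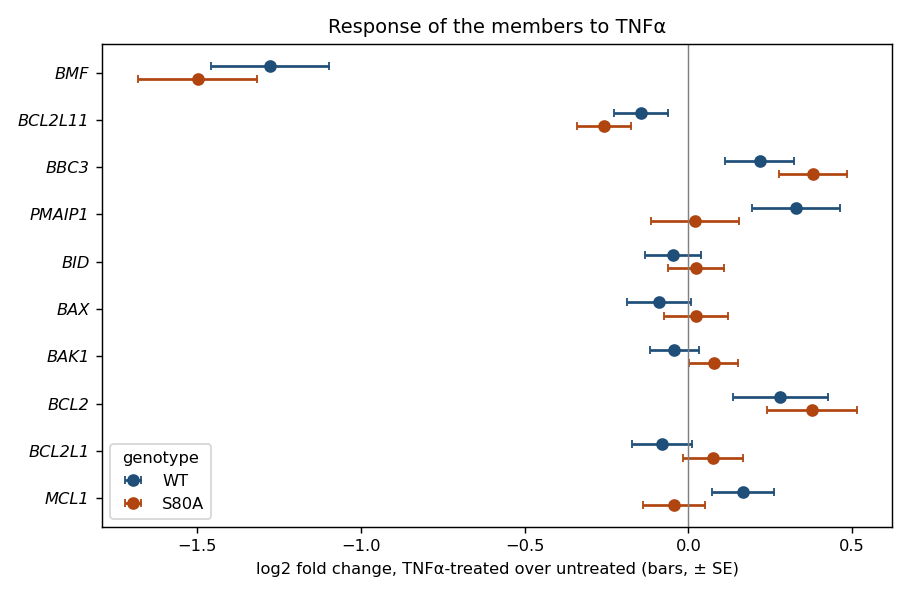
Log2 fold change of TNFα-treated over untreated cells (horizontal axis) for each member in WT (blue) and S80A (orange) cells, with bars of ± 1 SE. BMF lies at -1.28 and -1.50, and the other members lie between -0.26 and 0.38.

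Whether the TNFα response differed between genotypes was asked with an interaction term. It passed for 0 of the 10 members, with 0 of them under an unadjusted p of 0.05 in edgeR's quasi-likelihood test and 0 passing in DESeq2. Across all 14383 genes it passed for 0 in edgeR (0.0%) and 0 in DESeq2, with 520 and 464 genes under an unadjusted p of 0.05. For BMF, whose TNFα response chose the set, the difference between the responses was -0.22 (95% interval -0.77 to 0.33) as a description. PMAIP1 had the widest value, -0.31 (95% interval -0.71 to 0.09), and BCL2 was at 0.09 (95% interval -0.34 to 0.52). With 3 samples a group, these intervals are wide, and a failed test does not show that the responses are alike.

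Levels were compared between genes only per length, as CPM, counts scaled to a fixed library total, per kilobase of the canonical GENCODE transcript, a quantity that depends on which transcript the cells use. In untreated WT cells the level fell from BAX (140.6 ± 11, SD, n = 3) through MCL1 (63.9 ± 3.7), PMAIP1 (28.2 ± 1.7), BID (23.6 ± 0.11), BAK1 (17.4 ± 0.29), BCL2L1 (14.1 ± 0.59), BCL2L11 (7.90 ± 0.54) and BBC3 (7.12 ± 0.79) to BMF (1.31 ± 0.15) and BCL2 (0.97 ± 0.13). BCL2L11 and BBC3 were the only neighbours whose samples overlapped in this group. BMF and BCL2 thus held the lowest places of the 10 members, under the other BH3-only and anti-apoptotic genes among them. The first 6 places were the same in all 4 groups. In untreated S80A cells BCL2 (1.52 ± 0.19) and BMF (1.42 ± 0.31) overlapped. After TNFα BMF was lowest in both genotypes, at 0.54 ± 0.06 in WT and 0.50 ± 0.04 in S80A, beneath BCL2 at 1.18 ± 0.16 and 1.97 ± 0.18. BBC3 stood above BCL2L11 in both TNFα groups and below it in both untreated groups. With the length of all exons joined in place of the canonical transcript, 8 of the 10 places were kept in untreated WT cells and 4 in each other group. BAK1 then stood above BID, and BCL2L11 above BBC3, in all 4 groups. MCL1 stood above BAX in all but untreated WT cells, and BMF above BCL2 in untreated S80A cells.

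**Figure D4:**
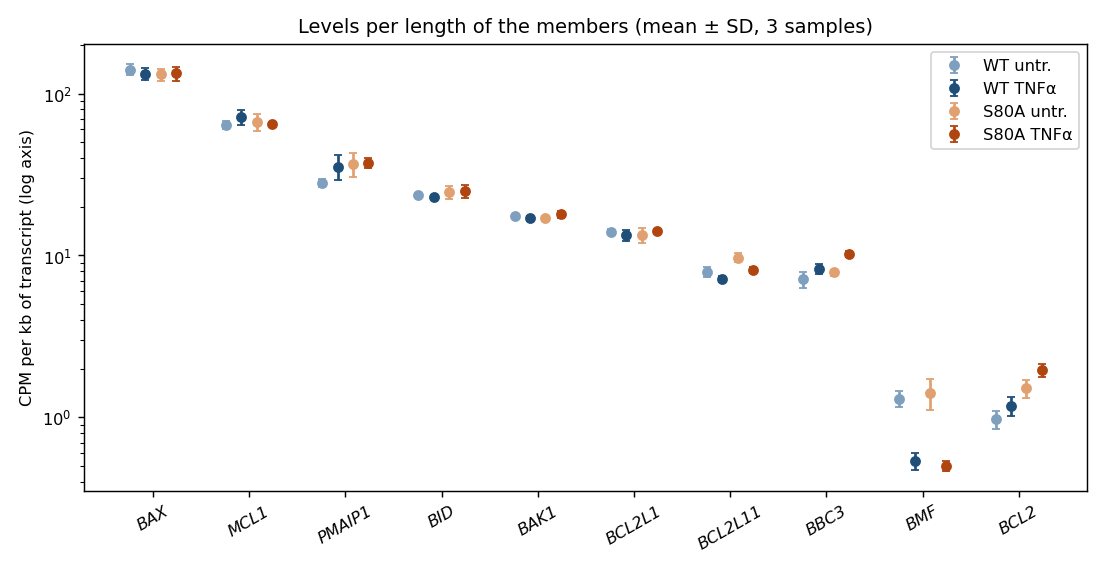
CPM per kilobase of canonical transcript (log axis) of the 10 members in the 4 groups, as mean ± SD of 3 samples, ordered by untreated WT cells. BMF and BCL2 lie near 1, BAX lies above 100, and the BMF points of the TNFα groups fall to 0.54 and 0.50.

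The genes whose log2 CPM followed BMF most closely over the 12 samples, among 13058 genes with a mean of at least 1 CPM, were GM2A (Pearson r = 0.925), NR2F2 (0.923), KIT (0.922), PIK3R3 (0.916) and ZCCHC24 (0.914). These are descriptions, and the 12 points share their 4 conditions and libraries. KIT, a receptor tyrosine kinase, averaged 361 and 239 normalised counts in WT cells without and with TNFα and 331 and 201 in S80A cells, a smaller fall than that of BMF. GM2A, a lysosomal lipid-binding protein, averaged 1083 and 949 in WT and 1068 and 926 in S80A cells, so likeness of pattern did not mean likeness of size.

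Other genes of the pathway were read from 3 lists. Of 14 other BCL2 family genes 10 were tested; BCL2A1, BCL2L10, BCL2L14 and BCL2L15 were not, with at most 14 counts in any library. In untreated cells 1 of the 10 passed in edgeR's test as lower in S80A and 0 as higher, with a list median of 0.11. It was BECN1, whose protein, beclin 1, carries a BH3 motif, binds BCL2 and starts autophagy. BECN1 averaged 1156 ± 27.6 normalised counts in untreated WT and 932 ± 32.5 in untreated S80A samples (SD, n = 3 each), and 1160 ± 75.4 and 969 ± 17.5 after TNFα. The samples did not overlap in either condition, and the log2 difference was -0.31 (SE 0.07; adjusted p = 0.0219) untreated and -0.26 (SE 0.07; adjusted p = 0.0466) after TNFα in edgeR's test, where it was again the 1 gene of the 10 that passed. Both calls were near the threshold: untreated, BECN1 was lost without any one of the WT untreated replicates or without S80A untreated replicate 3 (adjusted p up to 0.103), and after TNFα it passed in 2 of the 12 fits, those without S80A untreated replicate 1 or 2 (adjusted p up to 0.155 in the others). Of the 7 other settings the untreated call passed in 5 (adjusted p up to 0.0699) and the call after TNFα in 3 (adjusted p up to 0.0995).

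Among 10 genes of the death machinery after the mitochondrion, 0 passed in any of the comparisons in edgeR, with 2 under an unadjusted p of 0.05 untreated and 0 after TNFα between genotypes. After TNFα the widest differences between genotypes were -0.22 (SE 0.16) for CYCS, cytochrome c, and -0.20 (SE 0.12) for XIAP, an inhibitor of caspases. XIAP passed, with an adjusted p of 0.0285 in edgeR's test, once 1 library, WT TNFα replicate 3, was left out. The list's median was -0.0048 untreated and -0.08 after TNFα.

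Of 12 partners and regulators of the members, 0 passed between genotypes in untreated cells, with 4 under an unadjusted p of 0.05. FOXO1 (0.26, SE 0.11), a factor that can switch on BCL2L11, and FBXW7 (0.23, SE 0.09), part of a ligase that marks MCL1 for breakdown, had the widest differences there. After TNFα 1 was higher and 1 lower in S80A cells. E2F1, a cell cycle factor known to act on BH3-only genes, was higher by 0.29 (SE 0.08; adjusted p = 0.0365 in the edgeR test), and MAPK8, which encodes the kinase JNK1 that acts on BMF and BIM proteins, had a difference of -0.34 (SE 0.08; adjusted p = 0.0200). MAPK8 averaged 1132 ± 97.9 in WT and 894 ± 10.9 in S80A samples after TNFα, and E2F1 1596 ± 115.4 and 1954 ± 135.3 (SD, n = 3 each). The MAPK8 call was lost without WT TNFα replicate 1 or 2 or any one of the S80A TNFα replicates (adjusted p up to 0.0982). The E2F1 call passed in 4 of the 12 fits, those without WT TNFα replicate 3, S80A untreated replicate 1 or 2, or S80A TNFα replicate 2 (adjusted p up to 0.155 in the others), and in 5 of the 7 other settings (adjusted p up to 0.0715).

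**Figure D5:**
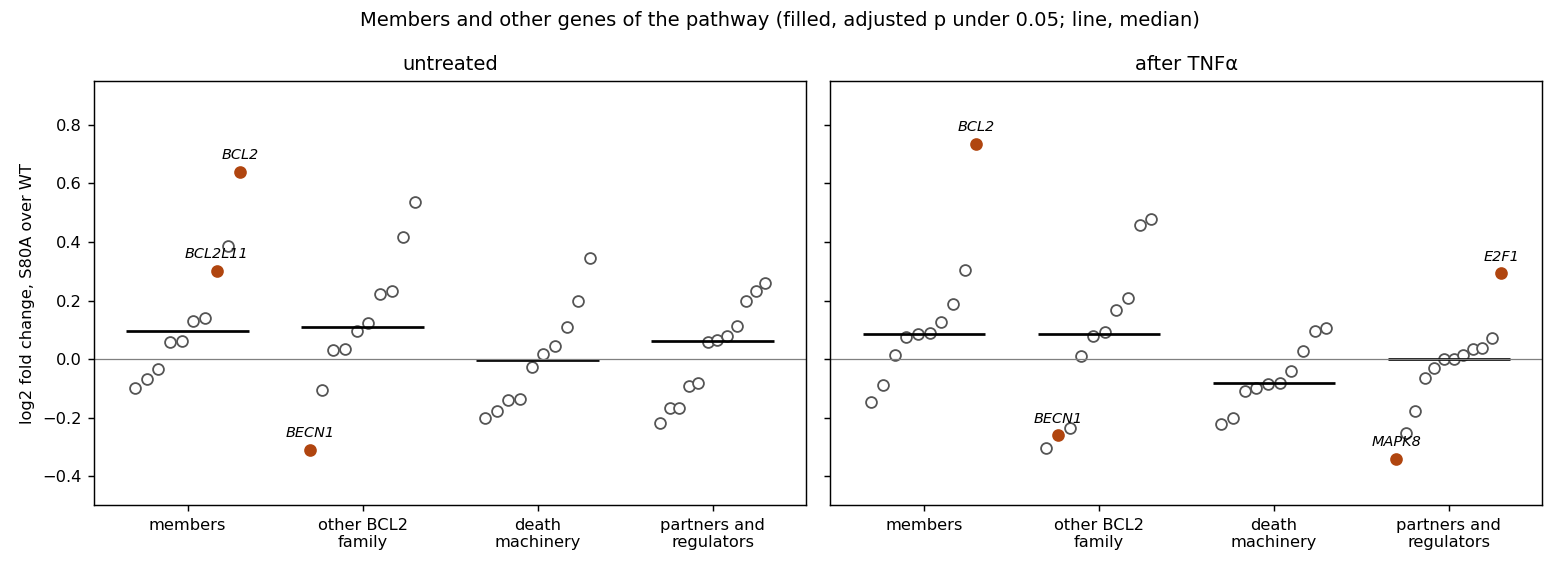
Log2 fold change of S80A over WT (vertical axis) of the members and the 3 lists, untreated (left) and after TNFα (right); each point is a gene, filled and named for an adjusted p under 0.05, and lines are list medians. BCL2 stands at 0.64 and 0.74, and BECN1, MAPK8 and E2F1 are the named points outside the members.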

How the data were processed

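RNA from 12 HEK293T samples was sequenced by the authors as single-end 75 bp reads from a stranded poly(A) kit, aligned to GRCh38 with HISAT and counted with HTSeq-count. The deposited table holds raw counts per gene symbol. Versions and counting options are not given in the sources used here. The authors' lists of changed genes (fold changes, p-values, normalised values) were not used. Of 33121 genes, 28 with symbols or counts turned into dates (at most 0.233% of a library) were left out. Groups came from the labels; for WT TNFα replicate 3 a description label repeats that of replicate 2, and the title was used. The members, lists and motifs were chosen with earlier results of these data known.

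Genes passing edgeR's filterByExpr (minimum count 10) were kept. Counts were TMM-scaled and fitted with edgeR 4.0.16 (R 4.3.3), glmQLFit with 1 mean for each of the 4 groups over all 12 samples, and contrasts were tested with glmQLFTest, Benjamini-Hochberg adjusted over 14383 genes at a threshold of 0.05. SEs are the log2 fold change divided by the square root of F, and 95% intervals use the same degrees of freedom. DESeq2 1.42.0 was an alternative. In simulated data for S80A against WT after TNFα over 14383 genes, the test recovered 84% of changes of 1 on the log2 scale and 99% of changes of 2, with 4.69% false calls. Smaller changes were not simulated, and all genotype differences of the members were smaller, so the share recovered at their size is not known. The simulated spread followed the trend over all genes, with no deviation particular to a library. Positions and lengths are from GENCODE 44. Log2 CPM used a prior count of 2. All members were named, and of the lists those passing or, where none did, the 2 widest with a mean of at least 1 CPM. Some genes that this rule names are not reported here. No 2 replicates of the same group agreed within sampling noise, and samples of different groups were not compared in this way. S80A untreated replicate 2 stood furthest from its group. Its chi-square per gene was 38.2 against replicate 1 and 22.4 against replicate 3, with 8.70 between replicates 1 and 3. Other alternatives were DESeq2 size factors, total counts, other filters, the compared samples alone, a replicate block and each library left out. Counts bound precision by counting error only.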

Additional observations from a re-analysis of the deposited data

How the results depend on the processing

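The count of members passing between genotypes in untreated cells, 2, depended on the processing: it was 1 when libraries were scaled by total counts, 1 with no filter on low counts, 0 with the compared samples fitted alone, and 0 to 3 when 1 library was left out. After TNFα it stayed at 1 in all of these, and for the interaction at 0 in all but the compared samples alone, which cannot give an interaction. The log2 difference of BMF with TNFα ranged from -1.37 to -1.18 in WT and from -1.61 to -1.31 in S80A over the left-out libraries. Over all genes the counts of calls behind the background shares also moved. Between genotypes they were 900 untreated (456 with the compared samples alone, 356 without WT untreated replicate 2). After TNFα they were 1058 between genotypes (434 without WT TNFα replicate 2, 1646 without S80A untreated replicate 2). For TNFα they were 99 in WT (65 without WT untreated replicate 1, 161 in DESeq2). In S80A they were 181 for TNFα (71 with the compared samples alone, 98 without S80A TNFα replicate 1, 258 in DESeq2). With the length of all exons joined, an alternative chosen after seeing the data, 8 of 10 places in the order of levels were kept in untreated WT cells and 4 in each other group. Of the results for single genes 1328 kept their side of the threshold or, for TNFα values given without a test, moved by less than 1 SD between replicates, 50 fell short of the threshold, 2 newly passed and 10 tested differences changed sign, each without 1 library. Over the left-out libraries the last ranged, untreated between genotypes, from -0.055 to 0.25 for BMF, -0.00086 to 0.12 for BID and -0.035 to 0.13 for MCL1. After TNFα they ranged from -0.060 to 0.15 for PMAIP1 and -0.065 to 0.090 for BAX, with further negative values of -0.029 and -0.019. In the interaction they ranged from -0.0034 to 0.13 for BID, -0.013 to 0.19 for BCL2 and -0.079 to 0.51 for HUWE1. Among TNFα values near 0 in S80A cells the sign also turned for PMAIP1 (-0.075 to 0.16), BID (-0.045 to 0.086), BAX (-0.054 to 0.090) and MCL1 (-0.11 to 0.056). The cause was not tested. The deviations of same-numbered replicates from their group means correlated with a mean r of 0.118, over 0.1 in 9 of 18 pairs. For different numbers the mean r was -0.059, with 6 of 36 pairs over 0.1. Deviations from a group mean cancel within the group, so the mean for different numbers largely follows from that for same numbers. It is not a separate comparison. Every pair of samples numbered 1 was over 0.1, from 0.116 to 0.495. Pairs numbered 2 ran from -0.069 to 0.150 and pairs numbered 3 from -0.099 to 0.241. What the samples numbered 1 share was not tested. The labels name no shared batch, and the main fit held no block, so it treated the samples as sharing only a number. With a replicate block 2 members passed untreated, 1 after TNFα and 0 in the interaction, and BMF with TNFα was -1.28 in WT, while calls over all genes went from 900 to 1232 untreated and from 1058 to 1469 after TNFα. BMF, at 37 to 166 counts per library, is the member whose depth limits most.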

Other observations

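Among the 10 other BCL2 family genes tested, 0 passed for TNFα in WT and 0 in S80A cells in edgeR's test, with 0 and 1 of them under an unadjusted p of 0.05. Among those with a mean of at least 1 CPM, the widest log2 differences were 0.25 (SE 0.22) for BOK, an effector relative, and 0.13 (SE 0.20) for BNIP3L in WT cells. In S80A cells they were -0.39 (SE 0.20) for BNIP3L and -0.25 (SE 0.12) for BNIP3, both receptors for the removal of mitochondria by autophagy. Of the 10 genes of the death machinery 0 passed for TNFα in either genotype, with values of 0.18 for CYCS (SE 0.16) in WT cells, and -0.24 for CYCS (SE 0.16) and -0.19 for APAF1 (SE 0.11), the scaffold of the apoptosome, in S80A cells. Over the left-out libraries the S80A value ran from -0.38 to -0.013 for CYCS and from -0.61 to -0.15 for BNIP3L.

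The interaction of genotype and TNFα passed for 0 genes of the 3 lists in edgeR's test, with 0 of them under an unadjusted p of 0.05. Above the same mean, the widest values of each list were -0.52 for BNIP3L and -0.27 for BNIP3, -0.42 for CYCS and -0.31 for XIAP, and -0.26 for FOXO1 and 0.20 for HUWE1, a ubiquitin ligase that acts on MCL1. Their adjusted p lay between 0.911 and 0.939. Over the left-out libraries the interaction ran from -0.74 to -0.28 for BNIP3L and from -0.56 to -0.20 for CYCS.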
